A study of Mus musculus with 12 samples.

Results

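The genes described here are the 4 Notch receptors of the mouse (Notch1, Notch2, Notch3 and Notch4), 4 of their ligands (Jag1, Jag2, Dll1 and Dll4) and 2 transcriptional targets (Hes1 and Hey1). They were chosen by name as rows of the deposited count table, where all 10 were present among 16411 genes. The 12 libraries are RNA-seq of whole tissue, 6 of tumors and 6 of benign mammary gland, all from female MMTV-Neu-NDL-YD5 transgenic animals of the FVB strain, heterozygous for the transgene. They carry a gene for an activated HER2 receptor under the MMTV promoter, which is active mainly in mammary epithelium. The benign samples carry the same transgene as the tumors and were taken as mammary tissue without a visible tumor, away from any tumor. For this assay tumors and benign samples came from different mice, and the age of each animal at collection is not given in the sources used here. Both groups are bulk tissue, so fewer cells of a type and less RNA per cell cannot be told apart in any value given below.

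Notch receptors are single-pass membrane proteins that are cut when a ligand on a neighboring cell binds them. An ADAM protease makes the outer cut and the gamma-secretase complex the inner one, and the freed intracellular domain enters the nucleus, where it joins the DNA-binding protein Rbpj and a Mastermind coactivator to turn on genes such as Hes1 and Hey1. Fringe enzymes add sugars to the receptor that change which ligands it answers to. In the mammary gland the pathway is known for its part in luminal cell fate, and Notch4 was found as a site of mammary tumor virus insertion in mouse mammary tumors.

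The 10 genes did not all move one way between the groups. Among the receptors, Notch1, Notch2 and Notch3 rose in tumors by 1.35 to 1.89 times, while Notch4 did not pass the test. Among the ligands, Jag1 and Jag2 fell by 6.21 and 17.7 times and Dll4 fell by 1.72 times, but Dll1 rose 5.71 times. Both targets among the 10 genes rose, Hes1 by 2.19 times and Hey1 by 28.5 times. Of 4 other listed targets tested, described further on, 0 were higher and 1 (Heyl) was lower. In all, 6 of the 10 genes were higher and 3 were lower in tumors by the quasi-likelihood test of edgeR at an adjusted p-value under 0.1, against 28.2% of the 13191 genes tested that were higher and 34.8% that were lower (63.0% in either direction). All 6 tumors lay above all 6 benign samples for 3 of the 10 (14.7% of all genes tested) and below them for 2 (21.2%), so that 5 of the 10 did not overlap between the groups (35.9% of all genes). Over the 10 genes the median log2 fold change came to 0.67, beside -0.06 over all genes tested.

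**Figure D1:**
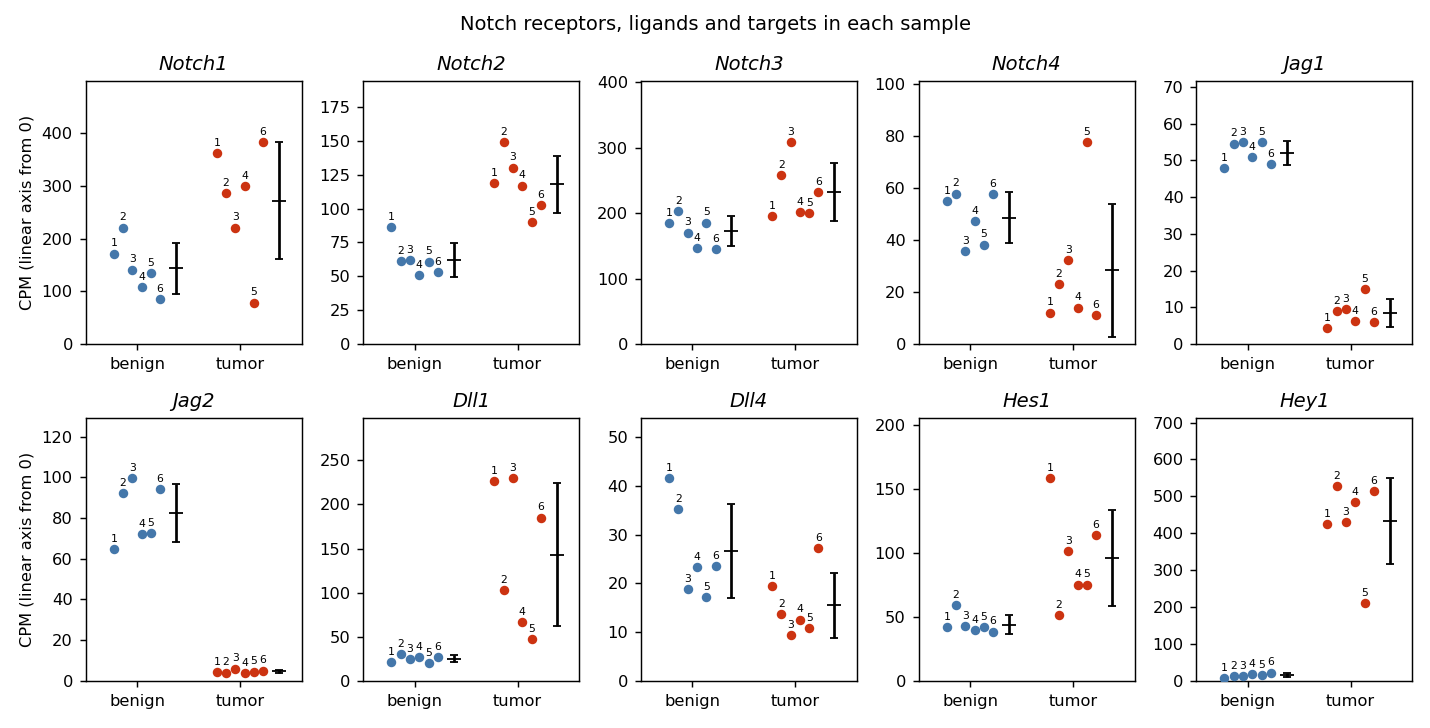
Normalized counts (CPM after TMM scaling of library sizes, linear axes from 0) of the 10 Notch genes in each sample, with benign samples in blue, tumors in red, sample numbers beside the points, and black bars for the mean and SD (n = 6 per group). Hey1 lay between 211 and 528 CPM in tumors against 8.15 to 22.5 in benign tissue, and Jag2 between 3.91 and 6.02 against 64.7 to 99.5. Tumor sample 5 had the lowest Notch1 and Hey1 and the highest Notch4 of the tumors.

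Depth was similar in both groups, with total counts from 5240853 to 8170687 in benign tissue and from 6111393 to 8588567 in tumors, and the lowest count of any of the 10 genes in any library was 27. Erbb2, the gene for HER2, lay between 44.8 and 73.7 CPM in benign tissue and between 1989 and 16634 CPM in tumors. Skeletal muscle genes took 2.89% to 7.04% of the counts in benign samples 3, 4 and 6 and at most 0.0373% in every other library, and benign sample 1 had the highest summed leukocyte markers (828 CPM against 97.6 to 171 in the other benign samples). Where a call on a named gene depends on benign samples 3, 4 and 6, its value without them is given. All 10 endothelial markers, all 7 mural, all 8 basal and myoepithelial, all 5 fibroblast and all 7 adipocyte markers were lower in tumors, and of 8 luminal epithelial markers 6 were higher and 1 (Krt19) was lower. None of these markers was at 0 in all tumors. Luminal markers together summed to 905 to 2460 CPM in benign tissue and 2657 to 4368 CPM in tumors.

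The 4 receptors are shown with the 250 bases before a transcription start in RefSeq, because 3 of them rose and the fourth did not pass the test. The windows are from RefSeq on GRCm38.p6 (mm10, the build named in the submitters' processing notes), printed 5′ to 3′ on the strand of the gene, and 8 of the 10 genes, all but Hes1 and Hey1, matched an entry. The motifs searched, on both strands, were TGGGAA, the core bound by Rbpj, CACGTG, the E-box, and CACGCG, a site that Hes and Hey factors can bind. Capitals mark any match.
Notch1, chr2:26503823-26504072, minus strand: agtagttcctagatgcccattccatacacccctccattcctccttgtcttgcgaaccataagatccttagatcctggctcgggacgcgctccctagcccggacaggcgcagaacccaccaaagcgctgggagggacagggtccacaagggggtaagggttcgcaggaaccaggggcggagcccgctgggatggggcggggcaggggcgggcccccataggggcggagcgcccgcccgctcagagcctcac
Notch2, chr3:98013288-98013537, plus strand: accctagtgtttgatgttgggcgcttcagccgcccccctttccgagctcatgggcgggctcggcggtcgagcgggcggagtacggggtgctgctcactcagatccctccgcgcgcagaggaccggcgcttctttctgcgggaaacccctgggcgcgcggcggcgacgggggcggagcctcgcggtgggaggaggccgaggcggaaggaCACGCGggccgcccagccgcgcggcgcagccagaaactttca
Notch3, chr17:32166891-32167140, minus strand: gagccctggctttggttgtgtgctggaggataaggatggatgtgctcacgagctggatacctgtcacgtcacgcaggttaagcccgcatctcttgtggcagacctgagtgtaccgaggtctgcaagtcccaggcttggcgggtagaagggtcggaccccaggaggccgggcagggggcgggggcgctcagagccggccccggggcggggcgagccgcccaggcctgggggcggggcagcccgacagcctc
Notch4, chr17:34564045-34564294, plus strand: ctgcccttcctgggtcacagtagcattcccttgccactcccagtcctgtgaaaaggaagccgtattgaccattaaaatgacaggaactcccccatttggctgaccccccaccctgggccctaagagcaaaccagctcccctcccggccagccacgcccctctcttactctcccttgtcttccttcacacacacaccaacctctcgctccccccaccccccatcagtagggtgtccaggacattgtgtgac
Of these 4 windows, that of Notch2 held a match to CACGCG, beginning 42 bases before the start, and the others held none. Among the ligand windows, which are not shown, those of Jag1 and Dll4 also held CACGCG, as did that of a second start of Dll1, and no window of a member held TGGGAA or CACGTG. The Notch1 window lies inside the span that GENCODE gives that gene, so it is not before the start of that span. Of the windows of Notch1, Notch2, Notch3 and Notch4, 2, 11, 0 and 27 bases lie in GENCODE exons. Over all 32851 windows of this length, 21.6% held TGGGAA, 6.02% CACGTG and 7.62% CACGCG. A match of letters is a description of the window and shows no binding.

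Notch1 spans chr2:26457903-26516663 on GRCm38 and is the receptor best known from luminal progenitor cells. It lay between 85.7 and 221 CPM in benign tissue (median 138) and between 78.6 and 383 CPM in tumors (median 293). Among tumors, 4 exceeded every benign sample, tumor sample 3 was level with the highest benign sample, and tumor sample 5 lay below all of them. The means were 144 ± 47.8 and 272 ± 111 CPM (SD, n = 6), a rise of 0.92 on the log2 scale (standard error (SE) of 0.33, edgeR, adjusted p = 0.030). Without benign samples 3, 4 and 6, those with skeletal muscle RNA, the log2 fold change was 0.67 and the call was lost (adjusted p = 0.218). Without tumor sample 5 it was 1.17 (adjusted p = 0.0011).

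Notch2 (chr3:98013527-98150361) lay between 51.1 and 86.1 CPM in benign tissue (median 61.0) and between 89.8 and 149 CPM in tumors (median 118). The groups did not overlap, though the highest benign sample, number 1, came close to the lowest tumor, number 5. The means were 62.3 ± 12.5 CPM (benign) and 118 ± 20.8 CPM (tumor) (SD, n = 6), a rise of 0.92 on the log2 scale (SE 0.15, edgeR, adjusted p = 2.0e-04).

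Notch3 (chr17:32120820-32166852), a receptor that is also prominent in vascular mural cells, lay between 146 and 203 CPM in benign tissue (median 177) and between 195 and 309 CPM in tumors (median 217). Among tumors, 3 lay above every benign sample and the other 3 were level with the top of the benign range. The means were 173 ± 22.8 CPM (benign) and 233 ± 44.6 CPM (tumor) (SD, n = 6). On the log2 scale the rise was 0.43 (SE 0.14, edgeR, adjusted p = 0.019), and without benign samples 3, 4 and 6 it was 0.32 and lost its call (adjusted p = 0.129). The 7 mural markers moved the other way. They summed to 152 to 258 CPM in tumors, to 701 to 913 CPM in benign samples 1, 2 and 5, and to 1855 to 3372 CPM in benign samples 3, 4 and 6, where Des, which skeletal muscle also expresses, is part of the sum (up to 2413 CPM). Their part in the level of Notch3 was not tested.

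Notch4 (chr17:34564268-34588503), a receptor best known from endothelium, was at 55.0, 57.9, 35.7, 47.2, 38.3 and 57.7 CPM in benign samples 1 to 6. In tumor samples 1 to 6 it was at 12.1, 23.1, 32.3, 14.0, 77.9 and 11.2 CPM. Among tumors, 5 lay below every benign sample and tumor sample 5 lay above every one. The means were 48.7 ± 9.83 CPM (benign) and 28.4 ± 25.5 CPM (tumor) (SD, n = 6). With all tumors the change was -0.77 on the log2 scale (SE 0.43, edgeR, adjusted p = 0.145), and without tumor sample 5 it was -1.33 (SE 0.28, adjusted p = 0.0016). The SD of Notch4 was 89.8% of the mean in tumors and 20.2% in benign tissue. The 10 endothelial markers summed to 729 to 1430 CPM in benign tissue and 102 to 125 CPM in tumors, and tumor sample 5, at 120 CPM, lay within the range of the other tumors. Their part in the level of Notch4 was not tested beyond the fit relative to these markers given further on.

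Tumor sample 5 differed from the other tumors across several members. It had the lowest Notch1, Notch2, Dll1 and Hey1 and the highest Notch4 and Jag1 of the 6 tumors. Tumor samples 1, 2, 3, 4 and 6 were lowest for 2, 1, 1, 1 and 1 of the 10 genes and highest for 1, 2, 3, 0 and 2. Such ranks were not taken over all genes. Tumor sample 5 was also the only library with counts for Dll3, a Delta-like ligand that was read 10 times there and 0 times in the other 11 libraries. Its Erbb2 level of 6808 CPM lay inside the range of the other tumors, and its skeletal muscle markers summed to 149 CPM, against 1.20 to 8.64 CPM in the other tumors. The part of that muscle RNA in these levels was not tested.

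Jag2 (chr12:112907819-112929776), a Jagged ligand, showed the largest fall of the 10 genes. It lay between 64.7 and 99.5 CPM in benign tissue (median 82.4) and between 3.91 and 6.02 CPM in tumors (median 4.40), and its spread within each group was small, at 17.5% and 16.8% of the mean. The means were 82.5 ± 14.4 CPM (benign) and 4.65 ± 0.781 CPM (tumor) (SD, n = 6), a change of -4.14 on the log2 scale (SE 0.16, edgeR, adjusted p = 1.9e-09). Jag1 (chr2:137081456-137116644), the other Jagged ligand, lay between 47.8 and 55.1 CPM in benign tissue and was at 4.36, 8.94, 9.63, 6.21, 15.1 and 6.04 CPM in tumor samples 1 to 6. The highest tumor, sample 5, lay far below the lowest benign sample. The means were 52.1 ± 3.25 CPM (benign) and 8.38 ± 3.83 CPM (tumor) (SD, n = 6). On the log2 scale the change was -2.63 (SE 0.25, edgeR, adjusted p = 1.7e-06). The basal and myoepithelial markers fell in the same tumors, from a summed 846 to 1852 CPM to 59.8 to 158 CPM. Their part in the fall of the Jagged ligands was not tested.

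Dll1 (chr17:15367354-15376872), a Delta ligand, moved in the opposite direction. It lay between 19.9 and 30.3 CPM in benign tissue (median 25.7). In tumor samples 1 to 6 it was at 227, 103, 229, 67.0, 47.7 and 185 CPM, so every tumor lay above every benign sample but the tumors spread widely among themselves. The SD was 56.5% of the mean in tumors and 15.7% in benign tissue. Mean levels were 25.1 ± 3.94 CPM (benign) and 143 ± 80.9 CPM (tumor) (SD, n = 6). The rise was 2.51 on the log2 scale (SE 0.37, edgeR, adjusted p = 7.5e-05).

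Dll4 (chr2:119325784-119335962), the Delta ligand of sprouting endothelium, was at 41.5, 35.2, 18.9, 23.3, 17.2 and 23.6 CPM in benign samples 1 to 6 and at 19.5, 13.6, 9.39, 12.6, 10.9 and 27.2 CPM in tumor samples 1 to 6. Among tumors, 4 lay below every benign sample, and tumor samples 1 and 6 lay inside the benign range. Mean levels were 26.6 ± 9.63 CPM (benign) and 15.5 ± 6.69 CPM (tumor) (SD, n = 6). By edgeR the change was -0.78 on the log2 scale (SE 0.29, adjusted p = 0.038). The call was lost without benign sample 1 or 2, or without tumor sample 3, 4 or 5 (adjusted p from 0.102 to 0.124).

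Hey1 (chr3:8663359-8667256), a basic helix-loop-helix repressor, showed the largest rise of the 10 genes. It was at 8.15, 12.9, 12.7, 18.5, 16.4 and 22.5 CPM in benign samples 1 to 6 and at 425, 528, 431, 484, 211 and 514 CPM in tumor samples 1 to 6. Every tumor lay far above every benign sample, tumor sample 5 the least. Mean levels were 15.2 ± 5.05 CPM (benign) and 432 ± 116 CPM (tumor) (SD, n = 6). The rise by edgeR was 4.83 on the log2 scale (SE 0.29, adjusted p = 3.4e-08). Hes1 (chr16:30064384-30067796), the related repressor of the Hes family, lay between 38.5 and 59.1 CPM in benign tissue (median 42.0) and between 51.4 and 158 CPM in tumors (median 88.6). Among tumors, 5 lay above every benign sample and tumor sample 2 lay inside the benign range. Mean levels were 44.0 ± 7.59 CPM (benign) and 96.1 ± 37.7 CPM (tumor) (SD, n = 6). By edgeR it rose by 1.13 on the log2 scale (SE 0.23, adjusted p = 0.0011).

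Levels can be compared between genes only per length, so CPM were divided by the length of the longest coding transcript of each gene in GENCODE M21. On that scale the ligand pool was made up differently in the 2 groups. Jag1 and Jag2 together held 55.4% to 71.3% of the length-scaled RNA of the 4 ligands in benign tissue and 2.28% to 18.1% in tumors, with the highest tumor share in sample 5. Dll1 held 15.7% to 20.4% in benign tissue and 67.2% to 92.2% in tumors, where it was the most abundant ligand in every library. These shares follow from the levels given above and were not tested again. Among the receptors, the ranges of the shares of Notch1, Notch2 and Notch3 overlapped between the groups. Notch3 held 39.9% to 47.3% in benign tissue and 32.2% to 48.7% in tumors. Notch1 held 22.0% to 36.8% in benign tissue and 15.4% to 50.5% in tumors, with the lowest share in tumor sample 5. Notch4 held 11.4% to 21.3% in benign tissue and 2.10% to 6.19% in the tumors other than sample 5, which was at 22.0%.

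**Figure D2:**
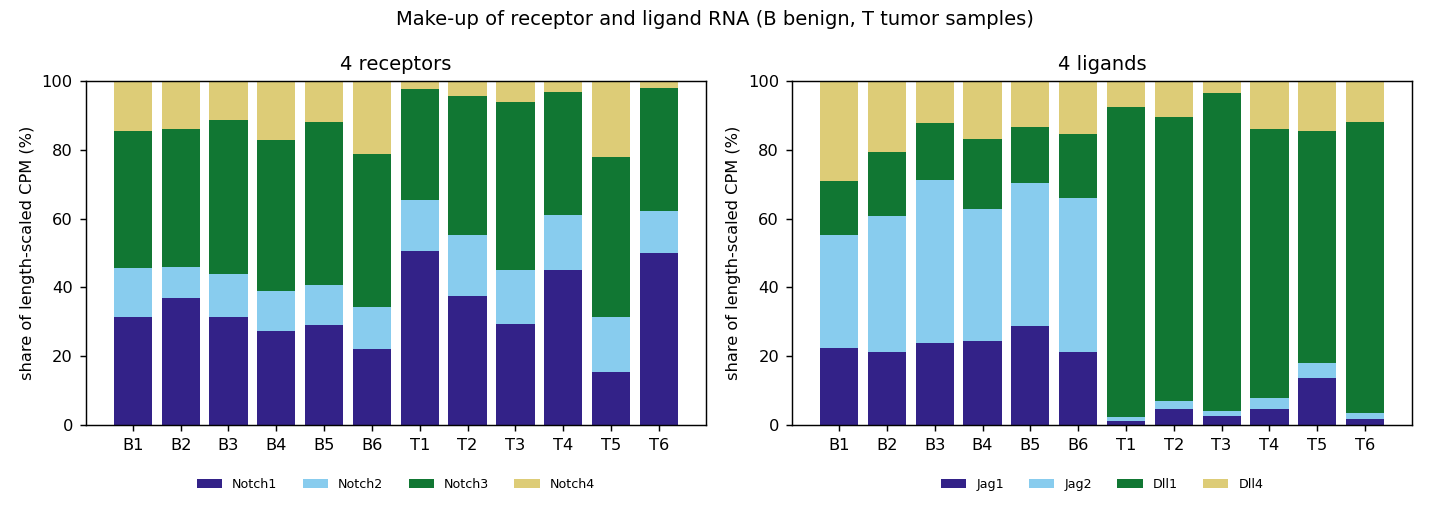
Share of each gene in the length-scaled CPM of the 4 receptors (left) and of the 4 ligands (right), in percent, with 1 bar for each benign (B) and tumor (T) sample. Dll1 filled 67.2% to 92.2% of the ligand bars in tumors and 15.7% to 20.4% in benign tissue, and tumor sample 5 had the highest Notch4 share of the 6 tumors, at 22.0%.

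In length-scaled CPM, Hes1 was the most abundant of the 10 genes in benign tissue, at 29.9 ± 5.17 CPM per kilobase (SD, n = 6), and its range did not overlap that of Notch3, the next, at 21.6 ± 2.85. Notch2 (5.94 ± 1.19) and Hey1 (6.27 ± 2.09) were the lowest, and from Notch3 down every neighbor in the order overlapped the next. In tumors Hey1 led at 178 ± 47.9 CPM per kilobase, followed by Hes1 at 65.5 ± 25.7 and Dll1 at 40.0 ± 22.6, and the lowest were Jag1 at 1.49 ± 0.68 and Jag2 at 0.91 ± 0.15. Neighbors overlapped throughout the order in tumors. Hey1 thus stood at place 9 of 10 in benign tissue and at place 1 in tumors.

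The change of each gene was also taken relative to the RNA of a cell type, since luminal markers were higher and endothelial markers lower in tumors. Relative to the summed counts of 10 endothelial markers, 8 of the 10 genes were higher in tumors and 1 was lower, against 89.9% of all genes that were higher and 4.54% that were lower on that scale. The median log2 fold change of all genes tested was 3.11 on it. Notch4 (2.44) and Dll4 (2.48) were both called higher relative to these markers and both lay under that median. Jag2 was the member that was lower (-0.99 on the log2 scale, edgeR, adjusted p = 0.0015), and Jag1 did not pass (0.52, adjusted p = 0.109). Jag1 was called higher when Pecam1 and Cdh5 alone made up the denominator (0.63, adjusted p = 0.061), under a stricter filter of 10 counts or more in each library (0.52, adjusted p = 0.095), and without benign sample 3 or 5 or tumor sample 1 or 6 (0.60 to 0.67, adjusted p from 0.044 to 0.087). Relative to 8 luminal markers, 2 members were higher and 5 lower, against 4.53% and 82.2% of all genes, whose median was -1.38. Those higher were Hey1 (3.51 on the log2 scale, edgeR, adjusted p = 4.2e-07) and Dll1 (1.28, adjusted p = 0.012). Notch1 (-0.28, SE 0.39), Notch2 (-0.42, SE 0.30) and Hes1 (-0.08, SE 0.35) did not pass on the luminal scale, while Notch3 (-0.88), Notch4 (-2.27), Dll4 (-2.08), Jag1 (-4.01) and Jag2 (-5.49) were lower. Of these lower genes, Notch3 lay above the median of -1.38 and the others lay under it.

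**Figure D3:**
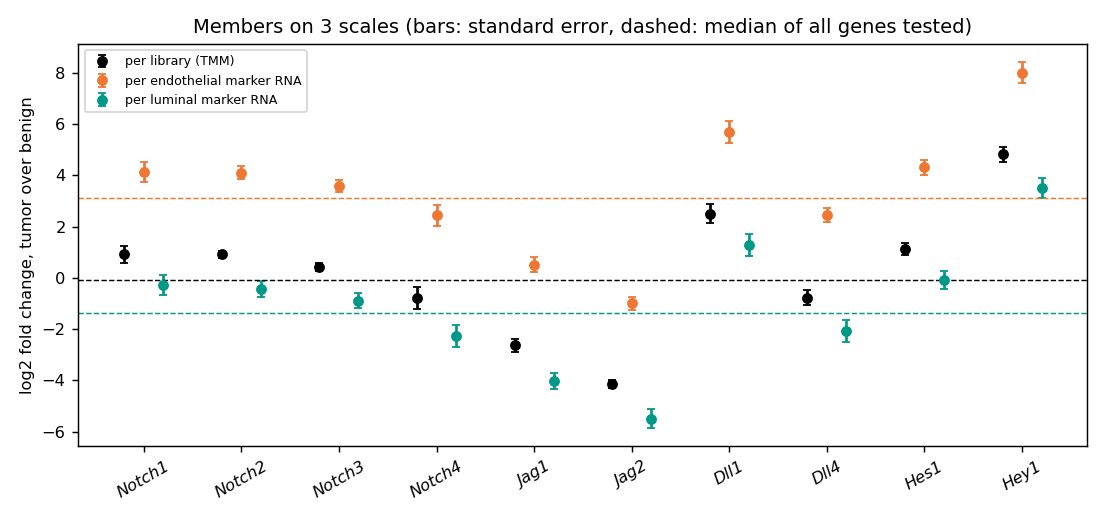
Log2 fold change of tumors over benign tissue (vertical axis) for the 10 genes per library (black), per endothelial marker RNA (orange) and per luminal marker RNA (green), with SEs from 6 samples per group and dashed lines at the median of all genes tested. Hey1 and Dll1 lay above 0 on all 3 scales, and Jag2 lay below 0 on all 3.

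The other genes of the pathway were taken from a list of 44 genes: other ligands, enzymes, nuclear factors, inhibitors and targets. Of these 43 were in the table and 39 were tested, of which 13 were higher in tumors, 12 lower and 14 not called, with a median log2 fold change of 0.10. These shares can be read beside the 28.2% higher and 34.8% lower over all genes.

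Among the enzymes that modify the receptor, 0 of 5 were higher by edgeR (0 at an unadjusted p under 0.05 and 0 by DESeq2) and 3 fell, which were the Fringe glycosyltransferases. Lfng was at 38.9 to 98.7 CPM in benign tissue and 2.02 to 3.61 CPM in tumors (-4.49 on the log2 scale, SE 0.25, edgeR, adjusted p = 1.7e-08). Mfng was at 56.6 to 91.0 CPM and 2.17 to 4.20 CPM (-4.49 on the log2 scale, SE 0.20, edgeR, adjusted p = 3.8e-09). Rfng fell less (-0.56 on the log2 scale, adjusted p = 0.0016), though for it too every tumor lay below every benign sample. Benign sample 1 had the highest Lfng and Mfng and the most leukocyte marker RNA. In the other benign samples, Lfng lay at 38.9 to 63.3 CPM and leukocyte markers summed to 97.6 to 171 CPM. In tumors these markers summed to 65.1 to 146 CPM. Relative to the endothelial markers, Lfng and Mfng changed by -1.31 and -1.29 on the log2 scale, and relative to the luminal markers by -5.86 and -5.78. The part of leukocyte RNA in the levels of Lfng and Mfng was not tested, nor that of another cell type beyond these fits. Pofut1 and Poglut1, which add the sugars that Notch needs to fold and signal, had log2 fold changes of 0.01 and -0.07 with overlapping groups and did not pass.

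Of 9 genes for receptor cleavage, 5 were higher and 1 was lower. The ADAM proteases rose modestly, Adam10 by 0.47 on the log2 scale (edgeR, adjusted p = 0.0013) and Adam17 by 0.65 (adjusted p = 5.1e-04). Ncstn, a subunit of the gamma-secretase complex, rose (0.67, adjusted p = 2.5e-04), with every tumor above every benign sample. Psen2, a catalytic subunit of that complex, fell, from 33.1 to 62.8 CPM in benign tissue to 8.82 to 13.5 CPM in tumors (-2.05 on the log2 scale, SE 0.18, edgeR, adjusted p = 9.0e-07).

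In the nuclear complex 3 of 8 genes were higher and 1 was lower. Rbpj, the DNA-binding subunit, lay between 52.0 and 62.4 CPM in benign tissue and between 41.4 and 68.6 CPM in tumors (-0.10 on the log2 scale, SE 0.14, edgeR, adjusted p = 0.579). Ep300, a histone acetyltransferase used by the complex, rose by 0.96 on the log2 scale (adjusted p = 2.5e-04), and the coactivator Maml1 fell (-0.42, adjusted p = 0.016).

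Of 4 genes for ligand ubiquitination, which ligands need to pull on the receptor, 1 rose and 2 fell. Mib1 rose by 0.74 on the log2 scale (edgeR, adjusted p = 6.5e-04), with every tumor above every benign sample. Neurl1a was lower by edgeR (-4.26 on the log2 scale, adjusted p = 0.0047), and its benign level lay in the samples with skeletal muscle RNA, at 63.5, 35.8 and 86.4 CPM in benign samples 3, 4 and 6 against 0.93 to 1.67 CPM in samples 1, 2 and 5. Without benign samples 3, 4 and 6 its log2 fold change was 0.23 (adjusted p = 0.758).

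Of the 8 tested genes for receptor trafficking, turnover and inhibition, 4 were higher and 3 lower. Numb, an inhibitor that sends Notch to endosomes, rose slightly (0.24 on the log2 scale, edgeR, adjusted p = 0.034), and lost its call without benign samples 3, 4 and 6 (0.23, adjusted p = 0.119). Its relative Numbl fell from 24.3 to 39.9 CPM in benign tissue to 2.96 to 9.51 CPM in tumors (-2.28 on the log2 scale, adjusted p = 1.7e-05). Dtx3, a Deltex family ubiquitin ligase, rose by 0.86 on the log2 scale (adjusted p = 2.5e-04).

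Of the genes grouped on the list as other targets, 5 were in the table and 4 were tested. Of these 0 were higher by edgeR (0 at an unadjusted p under 0.05 and 0 by DESeq2) and 1 was lower. Whether each of them, or Hes1 or Hey1, responds to Notch in this tissue was not tested. Heyl, the third Hey family gene, fell from 17.2 to 25.8 CPM in benign tissue to 3.64 to 5.66 CPM in tumors (-2.18 on the log2 scale, SE 0.16, edgeR, adjusted p = 2.0e-07). Hey2 (1.37 to 4.81 CPM in benign tissue and 0.77 to 4.81 CPM in tumors) did not pass, with a log2 fold change of 0.17 and an SE of 0.46. Hes6 (0.14, SE 0.15) and Nrarp (-0.40, SE 0.33), a feedback inhibitor of Notch, did not pass either. Among the other ligands, Dlk1, a Delta-like protein of preadipocytes, fell from 3.69 to 7.84 CPM in benign tissue to 0 to 1.15 CPM in tumors, where it was read 0 times in 3 libraries (-4.24 on the log2 scale, adjusted p = 2.0e-04).

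**Figure D4:**
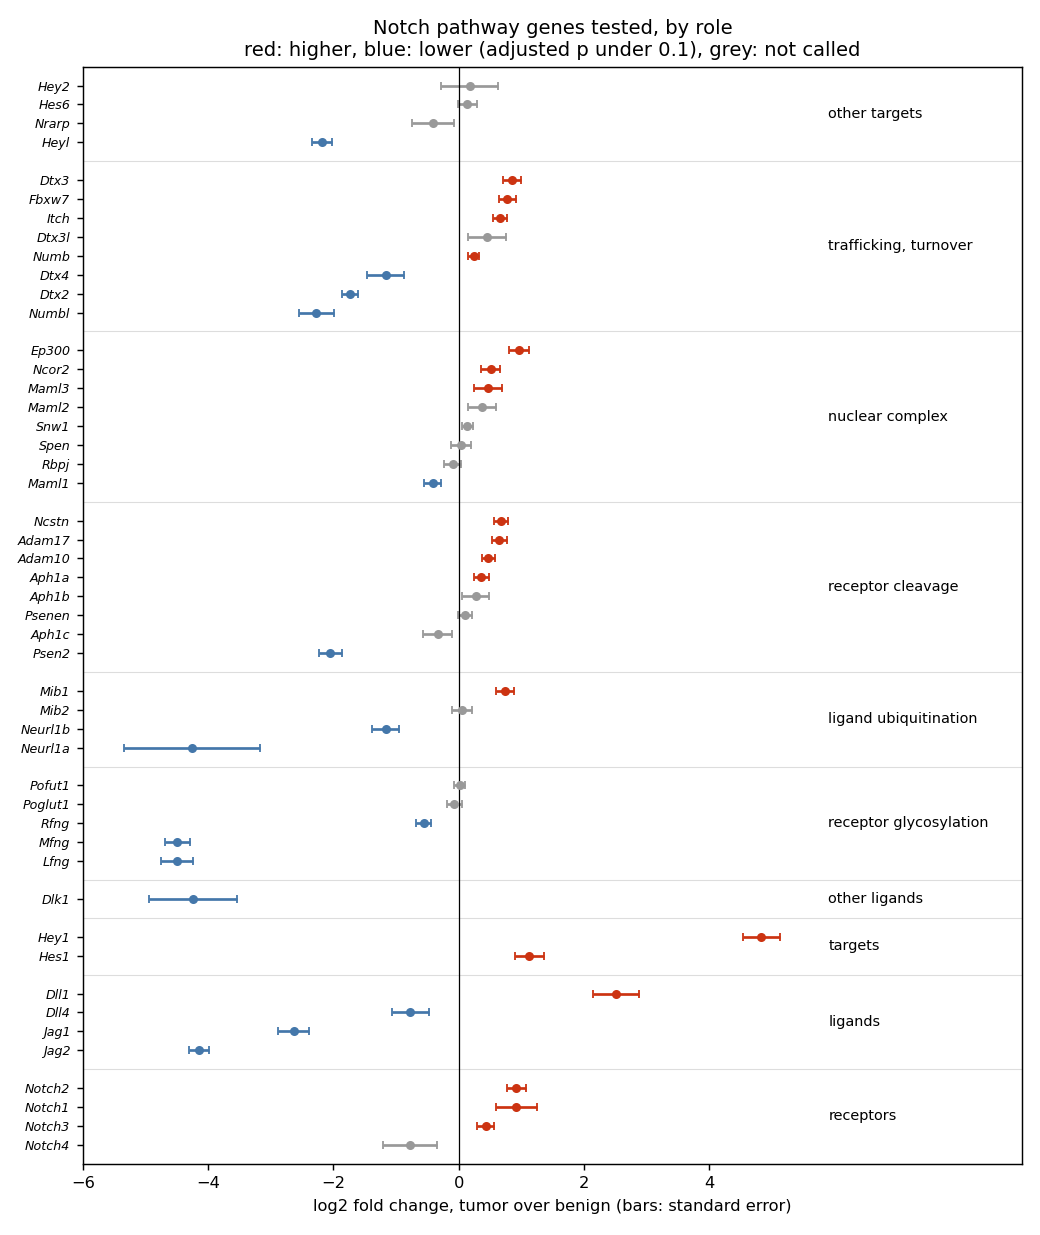
Log2 fold change of tumors over benign tissue (horizontal axis, bars for the SE, n = 6 per group) for the 10 Notch genes and the other pathway genes tested, of which 1 is not shown, grouped by role. Red marks genes higher and blue genes lower at an adjusted p-value under 0.1 by edgeR, and Lfng and Mfng stand lowest at -4.49, with Neurl1a, Dlk1 and Jag2 next, while Hey1 stands highest at 4.83.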

How the data were processed

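RNA was extracted with TRIzol and RNeasy columns and sequenced from poly A selected, directional libraries of 6 benign and 6 tumor samples. The submitters' processing notes name Trim Galore, Salmon, DESeq2 and mm10, with versions and annotation not given in the sources used here. The deposited values were estimated counts per gene as whole numbers, made by the authors with Salmon, for 16411 genes with a total of at least 5. Groups came from the sample titles.

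edgeR 4.0.16 (R 4.3.3, limma 3.58.1) was used for a quasi-likelihood test of the counts, with TMM scaling and filterByExpr by group (minimum count 10, minimum total 15), which left 13191 genes. P-values were two-sided and adjusted by Benjamini-Hochberg over all 13191, and genes were called under 0.1. The SE of a log2 fold change was not given by the fit. It was taken as the absolute log2 fold change divided by the square root of the F statistic of the test. CPM used TMM-scaled library sizes. For levels relative to a cell type, the same fit used the summed marker counts of each library as its size. Total counts of 5240853 to 8588567 put 3 counts at 0.329 to 0.556 CPM. No 2 libraries of a group agreed within counting noise. P-values set the difference between the groups against the spread between samples of a group. The study does not state whether each tumor came from a different mouse.

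The members and gene lists were chosen with earlier results of these data known. Besides the 10 members, the text names in each role the called genes with the largest rise and fall, and fixed pathway genes (Rbpj, Adam10, Adam17, Psen2, Ncstn, Lfng, Mfng, Rfng, Numb, Hes5, Hes6, Hey2, Heyl, Nrarp, Dlk1, Dll3). Hes5 was not listed in the table, and 1 further gene of the list is not reported here. Pofut1 and Poglut1 were added after their values were seen. Alternatives were DESeq2 1.42.0, other scalings and filters, a threshold of 0.05, 2 defining markers as the denominator, a replicate block, each sample left out in turn, and benign samples 3, 4 and 6 left out together.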

Additional observations from a re-analysis of the deposited data

Results flagged for a closer look

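In each of the 20 groups of 6 samples (10 genes, benign and tumor), the gap between the highest or lowest sample and its nearest neighbor was set against the whole range, and 4 values passed Dixon's 95% critical value for groups of this size, where chance flags about 1 in 20 groups. Notch2 in benign sample 1 was at 86.1 CPM, with the next sample at 61.7 CPM (a gap of 0.697 of the range). Hes1 in benign sample 2 was at 59.1 CPM, with the next at 42.6 CPM (0.801). Notch4 in tumor sample 5 was at 77.9 CPM, with the next at 32.3 CPM (0.684). Hey1 in tumor sample 5 was at 211 CPM, with the next at 425 CPM (0.677).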

How the results depend on the processing

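Over the alternatives, the count of Notch genes higher in tumors stayed at 6 except without benign samples 3, 4 and 6, where it was 4, and the count lower stayed at 3 except at 2 when single samples were left out and at 4 with the replicate block. For the other pathway genes the count higher ranged from 11 to 16 and the count lower from 10 to 14. The values of 10 and 14 came from filters that left 36 and 43 of these genes tested. In the other settings 12 or 13 were lower. Per endothelial RNA, 8 to 9 members were higher when single samples were left out, and 9 with 2 defining markers as the denominator or at least 10 counts in every sample, the ninth being Jag1 each time. Per luminal RNA, 5 to 6 were lower, the sixth being Notch2 without benign sample 5 (-0.54, adjusted p = 0.089 by edgeR). Of the fits of single genes, 572 kept their direction and call, 8 lost a call and 2 gained one. The direction turned in 4. Without benign samples 3, 4 and 6 the log2 fold change of Neurl1a was 0.23 and that of Hes6 was -0.013, and that of Rbpj was 0.029 without tumor sample 5 and 0.034 without tumor sample 6. The cause was not tested.

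The samples share only a number between groups, and deviations of same-numbered samples correlated at -0.123 to 0.106, with 0 of 6 samples correlating best with its own number. With the replicate number as a block, 6 members were higher and 4 lower, Notch4 being the added call (log2 fold change -1.14, adjusted p = 0.070 by edgeR), and 12 other pathway genes were higher and 12 lower.

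Depth limits Dll3, which was read only in tumor sample 5, and Dlk1, which had few or no counts in tumors.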
